A study of Mus musculus with 2 samples.

Results

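The regions described here are 212 p300 peaks of mouse midbrain that lie close together along the chromosomes and overlap no heart peak. They were found by sorting the midbrain peak list by peak middle and joining peaks whose middles lie at most 50 kb from the next. Chains of 5 or more peaks were kept as runs, which gave 34 runs with 223 listed peaks. Of these, 11 peaks that overlap a heart peak by at least 1 bp were dropped. The 212 members are 7.61% of the 2786 midbrain peaks and 8.06% of the 2631 midbrain peaks without a heart overlap, out of 6383 peaks in both lists. The members were chosen by measured values, namely the places where midbrain peaks were called and their overlap with called heart peaks. Their number, their spacing and their midbrain reads are therefore a description and are not tested.

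Both libraries came from CD-1 mouse embryos of both sexes at embryonic day 11.5, each from tissue pooled from about 150 embryos and immunoprecipitated with an antibody against p300. One library is heart and the other midbrain, and the labels name no transgene or treatment. The shared protocol does not name heart among the dissected tissues. With 1 library per tissue, each difference is a difference between libraries, no replicate check exists and no p-value is given. Sequencing depth was 5869671 aligned reads for midbrain against 1303861 for heart, a factor of 4.50. Counts are therefore scaled to the size of each library (rpm, reads for every 1000000 aligned reads), so that a single heart read is worth 0.767 rpm and a single midbrain read 0.170 rpm.

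p300 is a histone acetyltransferase and coactivator. It is brought to DNA by sequence-specific transcription factors and acetylates nearby histones. Its presence away from promoters is widely used to locate active enhancers in embryonic tissue. Genes that control development often have several enhancers spread over long stretches of sequence, and the runs are described here as candidate clusters of that kind. In pooled tissue, fewer cells of a type with bound p300 and less p300 per cell cannot be told apart.

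The runs lay on 16 chromosomes and spanned 1.83 Mb in all. Their spans ran from 6.53 to 162 kb, with a median of 38.6 kb. Neighbouring peaks were close, with a median distance of 3.83 kb between middles (quartiles 1.57 and 12.6 kb), against 259 kb over the whole midbrain list. Of the 189 gaps, measured from edge to edge, 63 were shorter than 1 kb, 70 were from 1 to 10 kb and 56 were longer. The shortest was 25 bp, so some neighbouring entries of the list may also be read as parts of 1 wider region. With peaks less than 1 kb apart joined beforehand, only 16 runs of 5 or more remained, with 94 midbrain-only regions.

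**Figure D1:**
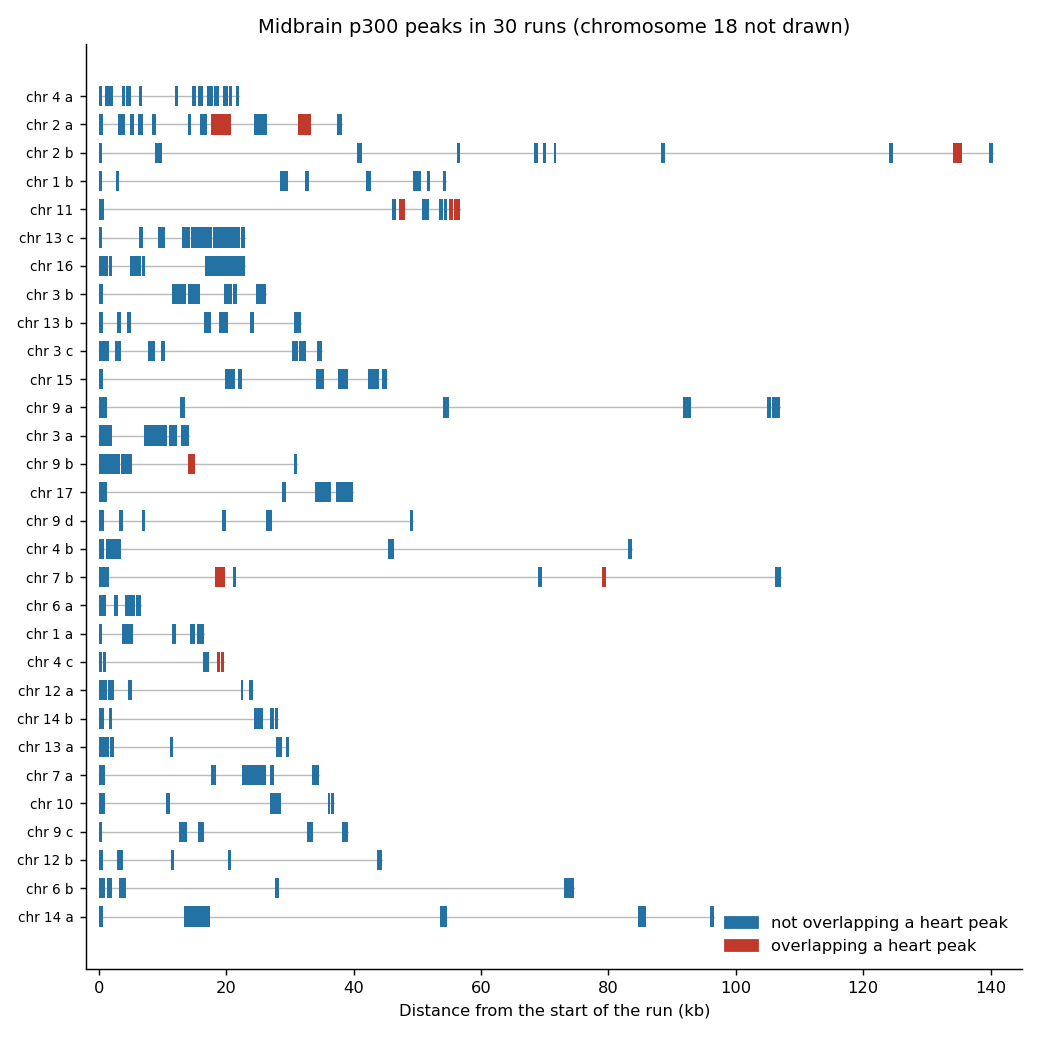
Position of each listed midbrain p300 peak (box) from the start of its run, in kb, for the 30 runs outside chromosome 18, ordered by number of peaks. Letters order the runs of a chromosome by position, blue boxes are members and red boxes overlap a heart peak; the 13 peaks of the top run lie within 22.0 kb, while some runs are spread over more than 100 kb.

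The limits of the rule fell at the following values. The widest gap inside a run was 47.98 kb and the narrowest gap above the limit was 50.4 kb. Runs of exactly 5 peaks numbered 14, and just below the limit were 28 chains of 4 with 112 listed peaks. The 100 midbrain-only peaks of the chains of 4 had a library-scaled midbrain over heart read ratio of 4.59 (95% interval for counting error 3.77 to 5.63, as for all intervals below), and the members had 3.85 (interval 3.42 to 4.35).

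By the median, single members held about as many midbrain reads as other midbrain peaks. They held a median of 17 midbrain reads (quartiles 13 and 28, range 7 to 141), and the 1519 midbrain-only peaks with no other midbrain peak within 50 kb, called lone peaks below, held a median of 16 (quartiles 13 and 23, range 5 to 154). Median widths were 746.5 bp for the members and 733 bp for the lone peaks. Per kb of peak, the midbrain reads came to 4.25 and 4.10 rpm. The mean per peak was higher at the members, with 4.07 rpm against 3.35 rpm. Their upper quartile of width was 1138.5 bp, against 961.5 bp for the lone peaks. The members ranked somewhat better in the deposited list, with 49 of 212 (23.1%) among ranks 1 to 500 against 230 of 1519 lone peaks (15.1%). Strong and weak peaks could stand in the same run. The best member, of rank 7, shared its run with a member of rank 2619. The worst rank of any member, in another run, was 2783.

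Within a run the midbrain reads were spread over several peaks. The member with most reads held between 13.9% and 56.2% of the midbrain reads of the members of its run, with a median of 29.0%. Among all listed peaks, dropped ones included, the peak with most midbrain reads was the outermost of the run in 10 of the 34 runs. In 23 runs at least 1 member had rank 500 or better, and the other 11 runs were made of weaker peaks alone.

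The run with the most peaks lay at chr4:22404154-22426142 (mm9). Its 13 peaks fell within 22.0 kb, and none overlapped a heart peak. The peaks were of even height. Their midbrain reads ran from 12 to 28 with a median of 14, and the strongest, spanning 22405021-22406348, held 28 midbrain reads and 1 heart read. The 13 members together held 201 midbrain reads (34.2 rpm) and 8 heart reads (6.14 rpm), a ratio of 5.58 (interval 2.78 to 13.1). Of these members, 7 held no heart read. Only 5 regions would be left in this run if peaks less than 1 kb apart were joined.

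A run of 11 listed peaks lay at chr2:17947588-17985722. It was shared in part with the heart, since its span held 5 heart peaks and 2 of its midbrain peaks were dropped for overlapping them. The dropped peaks were also its strongest, with 77 midbrain and 16 heart reads in the peak spanning 17965150-17968314 and 59 and 11 reads in the peak spanning 17978836-17980873. The 9 members held 179 midbrain and 19 heart reads, a ratio of 2.09 (interval 1.30 to 3.56). The strongest member, spanning 17971988-17973968, held 49 midbrain and 5 heart reads.

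Another run of 11 listed peaks, at chr2:77709103-77849405, had raised reads in both libraries. Its 10 members were weak, with 7 to 27 midbrain reads, and 9 of them held heart reads. Together they held 138 midbrain and 24 heart reads, the lowest ratio of any run (1.28, interval 0.824 to 2.06). Between the peaks the density was 4.98 times that outside the run in the midbrain (interval 4.46 to 5.56) and 6.48 times in the heart (interval 4.95 to 8.57). In steps of 20 kb the heart density rose from 0.614 rpm per kb just before the run to 1.92 just inside it, and the midbrain density rose from 0.511 to 1.78. Both fell together in 1 step inside the run, to 0.460 and 0.605 rpm per kb. Relative to the space between them, the members held 1.95 times the midbrain density (interval 1.62 to 2.32) and 1.66 times the heart density (interval 1.05 to 2.53). The part of this shared rise in the listing of the peaks was not tested. The pooled ratio, the pooled excess over flanks and the pooled values between peaks are given with and without this run.

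**Figure D2:**
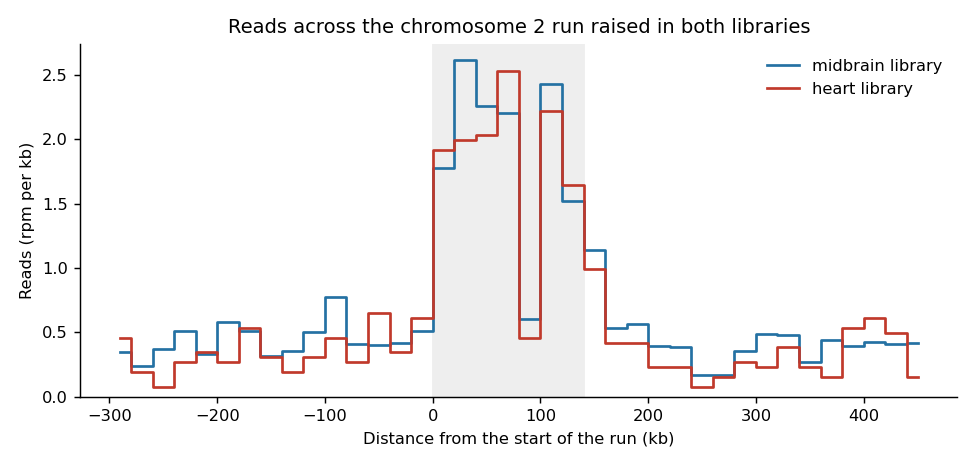
Read density in rpm per kb in steps of 20 kb across the chromosome 2 run with 11 listed peaks that spans 140.3 kb (grey), for the midbrain and heart libraries, by distance from the start of the run. Both libraries lie near or above 1.5 rpm per kb through most of the span, dip together in 1 step, and lie mostly below 0.6 rpm per kb outside it.

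A run of 8 peaks lay at chr1:78135643-78190142. None of its peaks overlapped a heart peak. Its members were weak, with 9 to 28 midbrain reads and ranks from 757 to 2622. They summed to 131 midbrain and 7 heart reads, a ratio of 4.16 (interval 1.96 to 10.5). The strongest, spanning 78184878-78186166, held 28 and 2 reads.

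The other run with 8 listed peaks lay at chr11:120045662-120102306. Its span held 4 heart peaks, and 3 of its midbrain peaks were dropped. The 5 members held 94 midbrain and 7 heart reads, a ratio of 2.98 (interval 1.39 to 7.62). The strongest, spanning 120096406-120097542, held 35 midbrain reads and 0 heart reads. With an upper 95% bound and no lower one, a count of 0 allows up to 3 reads, or 2.30 rpm in the heart.

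The strongest single members lay in other runs. The peak with most midbrain reads was at chr13:83877580-83881865, with 141 midbrain and 5 heart reads (24.0 and 3.83 rpm, ratio 6.26, interval 2.62 to 19.6). It is 4286 bp wide and has rank 7. The peak just before it, spanning 83874216-83877531, had the highest lower bound of the ratio among the members outside chromosome 18, with 83 midbrain reads and 1 heart read (midbrain over heart 18.4, 95% interval 3.22 to 737). These neighbours held 66.3% of the midbrain reads of their run of 7 peaks, and their edges are less than 1 kb apart. Next in midbrain reads were a peak at chr14:49288861-49292911, with 104 midbrain and 2 heart reads (midbrain over heart 11.6, 95% interval 3.12 to 96.6), and a peak at chr3:17691024-17694632, with 101 and 2 reads (midbrain over heart 11.2, 95% interval 3.03 to 93.9). A peak at chr16:77417953-77421165 held 84 and 2 reads (midbrain over heart 9.33, 95% interval 2.50 to 78.3), and the next peak of that run, spanning 77421224-77423583, held the same numbers. With so few heart reads the intervals are wide.

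The members with most heart reads were also strong in the midbrain or lay beside a heart peak. The peak at chr9:41389340-41392248 held 88 midbrain and 10 heart reads (midbrain over heart 1.95, 95% interval 1.01 to 4.22). A peak at chr7:80682932-80684449 held 40 and 10 reads, and its ratio of 0.888 was below 1 (interval 0.437 to 1.99). Its middle lies 1.52 kb from that of the nearest heart peak. Another peak at chr7:77496195-77499945 held 76 and 9 reads (midbrain over heart 1.88, 95% interval 0.938 to 4.26). A member without a listed heart peak could thus still hold heart reads.

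Over all 34 runs the ratio of midbrain to heart reads ranged from 1.28 to 11.9, with a median of 4.49. The interval lay above 1 in 32 runs. It included 1 in the raised run on chromosome 2 and in a run at chr7:80682932-80790076, where 4 members held 88 midbrain and 15 heart reads (midbrain over heart 1.30, 95% interval 0.749 to 2.43). The span of that chromosome 7 run held 8 heart peaks, the most of any run. In all, 8 runs had a heart peak in their span and 26 had none. In 8 runs the ratio rests on 4 or fewer heart reads. These ratios sum the reads of members taken from the midbrain list without heart overlaps. The count of 32 is therefore not independent of the rule, and no such count is given for shorter chains.

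**Figure D3:**
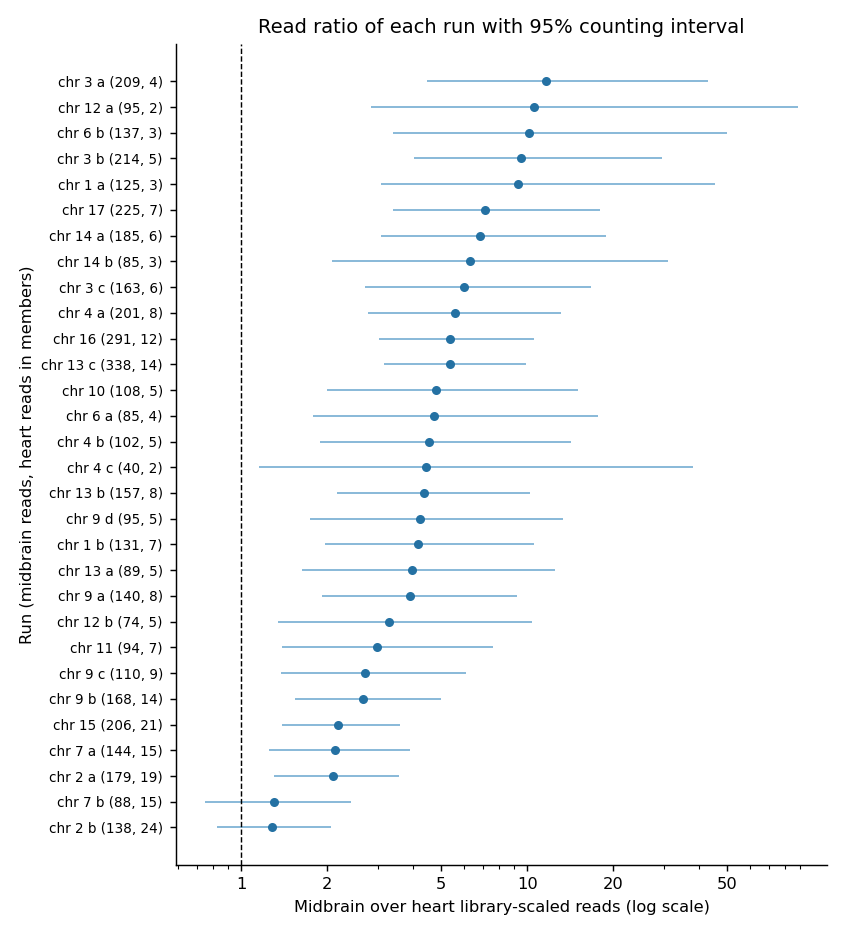
Midbrain over heart library-scaled reads summed over the members of each run outside chromosome 18 (points, log scale) with exact 95% counting intervals (lines); the label gives the midbrain and heart reads. Points lie to the right of 1 (dashed), from 1.28 to 11.6, and the intervals of the lowest 2 runs cross it.

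Pooled over the 212 members, the midbrain library held 5066 reads (4.07 rpm per peak) and the heart library 292 reads (1.06 rpm per peak), which gives the ratio of 3.85 (interval 3.42 to 4.35). Without the raised run it was 4.08 (interval 3.61 to 4.64). The interval of a single peak lay above 1 at 53 of the 212 members (a share with an interval of 19.3 to 31.4%), beside 22.6% over all midbrain-only peaks, and at no member below 1. No heart read was found at 77 members (36.3%, interval 29.8 to 43.2), against 673 of the lone peaks (44.3%, interval 41.8 to 46.8). A further 59 members held 1 heart read and 39 held 3 or more. The 11 dropped peaks, which the heart list selected, held 327 midbrain and 74 heart reads and had a ratio of 0.982 (interval 0.761 to 1.28).

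Over all ranks the pooled ratio was 3.85 at the members and 4.35 at the lone peaks (interval 4.13 to 4.59). The quotient was 0.885 (interval 0.778 to 1.007), which includes 1. Among the best-ranked peaks alone the pooled ratio was lower at the members than at the lone peaks. At ranks 1 to 500 the ratio was 4.33 for the 49 members (interval 3.61 to 5.24) and 6.58 for the 230 lone peaks (interval 5.87 to 7.40). The value of the members was thus 0.658 times that of the lone peaks (interval 0.531 to 0.817). Those members held more midbrain reads, with a median of 40 against 35, and were wider, with a median of 1553 bp against 1237.5 bp. None of them lies in the raised run, whose best rank is 605. Beyond rank 500 and up to 2000 the quotient was 0.973 (interval 0.802 to 1.18), and beyond rank 2000 it was 0.782 (interval 0.568 to 1.08). Both of these intervals include 1, so a difference was not detectable at this depth. At ranks 1 to 500, heart reads over flanks 5 to 10 kb away were 1.76 at members and 1.80 at lone peaks, a quotient of 0.979 (interval 0.766 to 1.25). Over space 50 to 150 kb away that quotient was 1.28 (interval 1.03 to 1.58). The 121 heart reads of these members include the 10, 10 and 9 at the peaks named above for most heart reads, and the intervals do not cover spread between peaks.

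The surroundings of the members held more reads than those of the lone peaks. For the midbrain library this contrast is not independent of the rule and was not tested. Members have other midbrain peaks within 50 kb by the rule, and lone peaks have none. In flanks 5 to 10 kb from a peak, leaving out positions within 500 bp of any listed peak, the midbrain density was 0.899 rpm per kb for the members and 0.488 for the lone peaks. The heart density in the same flanks was 0.626 and 0.466 rpm per kb. At 50 to 150 kb the midbrain density was 0.535 rpm per kb for the members and 0.439 for the lone peaks, and the heart density 0.477 and 0.446. Leaving out 500 bp may not remove all reads at the sides of neighbouring peaks. Around lone peaks the midbrain density was 0.883 rpm per kb in the step 1125 bp after the middle and 0.507 at 4875 bp.

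**Figure D4:**
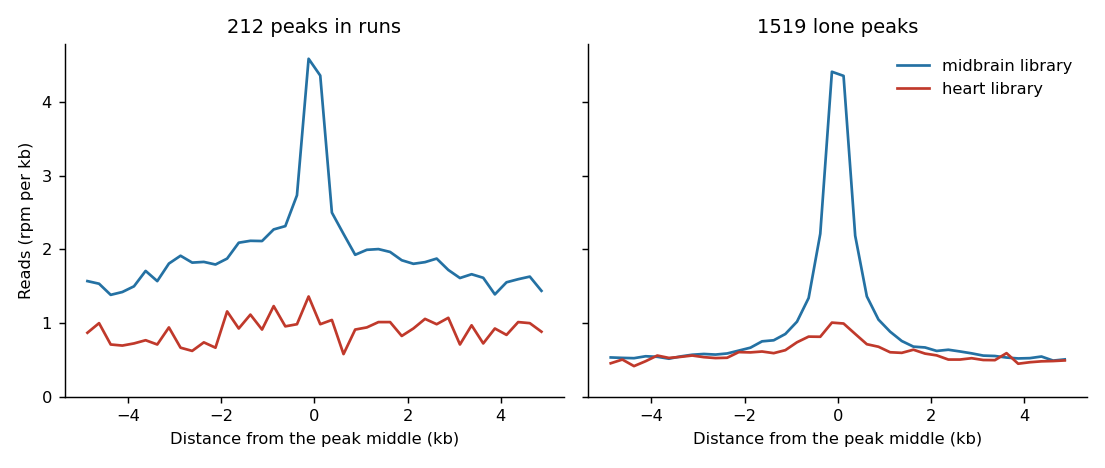
Mean read density in rpm per kb in steps of 250 bp by distance from the peak middle (kb), for the midbrain and heart libraries, over the 212 members (left) and the 1519 lone peaks (right); neighbouring peaks are not masked. Both groups reach a similar midbrain height at the middle (4.58 and 4.41 rpm per kb), while the level about 5 kb away is higher around the members in both libraries.

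The excess of a peak over its surroundings therefore depends on the flank, and for midbrain reads also on the rule. Midbrain reads were 4.73 times as dense in members as in flanks 5 to 10 kb away (interval 4.56 to 4.91), and 8.40 times at the lone peaks (interval 8.27 to 8.52). Against space 50 to 150 kb away the values were 7.95 (interval 7.72 to 8.19) and 9.35 (interval 9.24 to 9.45). Heart reads, which entered the rule only through the heart peak list, were 1.76 times as dense in members as in the near flanks (interval 1.54 to 2.01), and 2.02 times at the lone peaks (interval 1.91 to 2.13). The quotient of the heart values was 0.872 (interval 0.757 to 1.004). Against the far space the heart values were 2.31 (interval 2.05 to 2.60) and 2.11 (interval 2.01 to 2.22), and the quotient turned to 1.10 (interval 0.965 to 1.25). Both intervals include 1, so over all ranks no difference was detectable at this depth. By rank, 2 of the 6 quotients had an interval that left out 1, and they lay on opposite sides. Against the near flanks it was 0.795 (interval 0.647 to 0.976) for ranks beyond 500 and up to 2000, and against the far space it was 1.28 (interval 1.03 to 1.58) for ranks 1 to 500. Dropping peaks that overlap a heart peak lowers the heart values of both groups. Without the raised run the midbrain values of the members were 4.94 (near flanks) and 8.20 (far space), and the heart values 1.79 and 2.25. The heart quotient against the near flanks was then 0.886 (interval 0.765 to 1.03).

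The space between the peaks of a run was then compared with the space 50 to 150 kb outside it, again without positions near any listed peak. Midbrain reads were 1.87 times as dense between the peaks as outside (interval 1.82 to 1.92), with 0.926 against 0.495 rpm per kb. Heart reads were 1.52 times as dense (interval 1.43 to 1.62), with 0.694 against 0.456 rpm per kb. Without the raised run the values were 1.69 in the midbrain (interval 1.64 to 1.73) and 1.30 in the heart (interval 1.22 to 1.40). The midbrain rise was then 1.29 times the heart rise (interval 1.20 to 1.39). The runs were chosen by their midbrain peaks. The midbrain rise and its size beside the heart rise are therefore not independent of the rule and were not tested. With positions within 2 kb of a peak left out, and without the raised run, the values were 1.44 (interval 1.39 to 1.49) and 1.25 (interval 1.15 to 1.35). In chains of 4, just below the limit of the rule, the values at 500 bp were 1.46 (interval 1.41 to 1.51) and 1.26 (interval 1.17 to 1.35).

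Runs differed widely in this respect. For single runs only positions within 500 bp of a peak were left out, and the wider margin was applied to the pooled values alone. How far reads at the sides of peaks enter the values of single runs was not tested. The midbrain value lay above 1 with its interval in 28 of the 34 runs and included 1 in the other 6, and the median was 1.78. The heart value lay above 1 in 12 runs, below 1 in 1 run and included 1 in 21. Midbrain peaks chose the runs, so the midbrain count is not independent of the rule. No such counts are given for shorter chains. The highest midbrain value was 8.49 (interval 6.44 to 11.04) in the run at chr3:17684002-17698180. Its heart value was 0.798 (interval 0.0199 to 4.61), from a single read in 3.92 kb of space. It was followed by the chromosome 4 run of 13 peaks, with 6.74 in the midbrain (interval 5.34 to 8.43) and 0.771 in the heart (interval 0.0919 to 2.87, 2 reads). The space between the peaks of the chromosome 4 run was also small, at 6173 bp. In that run the members were only 1.47 times as dense in midbrain reads as the space between them (interval 1.14 to 1.89). At the other end, members of the run at chr17:15479807-15519617 were 8.42 times as dense as the space between them (interval 6.71 to 10.6), and its between-peak value was 1.33 (interval 1.08 to 1.63).

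**Figure D5:**
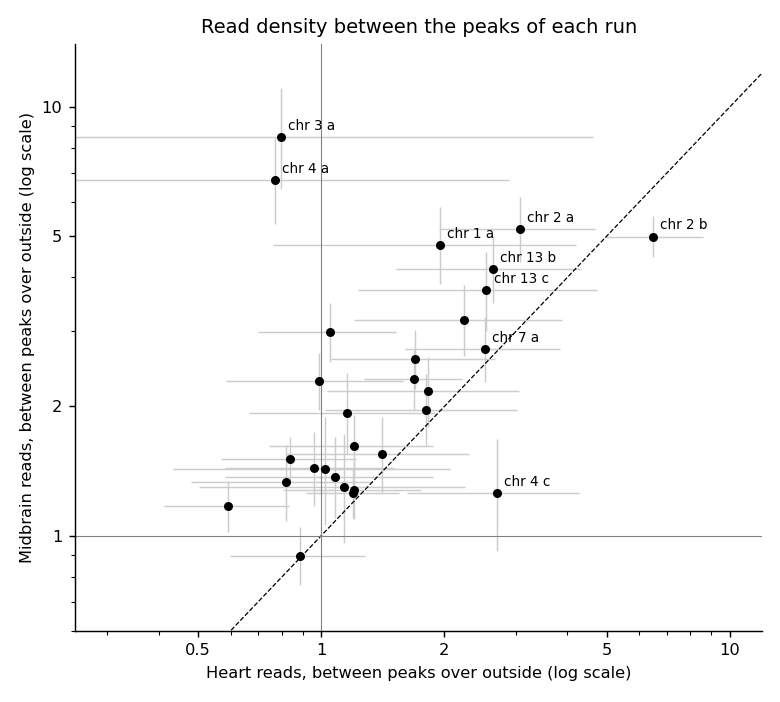
Read density between the peaks of a run over that 50 to 150 kb outside it, in the heart (x) and midbrain (y) libraries, both on log scales, 1 point per run outside chromosome 18 with 95% counting intervals; the run with no heart read between its peaks is left out. Most points lie above the dashed line of equal values, and the raised chromosome 2 run (chr 2 b) is the farthest to the right, with a heart value of 6.48 and a midbrain value of 4.98.

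Some windows between the peaks held at least as many midbrain reads as the single weakest midbrain-only peak. Of 2841 windows of 500 bp between the peaks, 502 (17.7%, interval 16.3 to 19.1) held 5 or more midbrain reads, and 5 is the lowest count of any midbrain-only peak. Outside the runs 441 of 12749 windows did so (3.46%, interval 3.15 to 3.79). Without the raised run the share between the peaks was 13.9%, and with positions within 2 kb of a peak also left out it was 9.10%, against 3.28% outside. The mark of 5 is low, since the weakest member held 7 midbrain reads and the lower quartile over all midbrain-only peaks was 13. Midbrain-only peaks also differ in width, from 217 bp upward, while the windows are fixed at 500 bp. These windows were not chosen as peaks are, so their counts say only how the reads were spread. Because midbrain peaks chose the runs, the contrast with the space outside is not independent of the rule.

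Heart peaks were also nearer to the members than to lone peaks, but this was shared by shorter chains. The median distance from a member to the nearest heart peak was 171 kb, against 267 kb for the lone peaks. A heart peak lay within 50 kb of 53 of the 212 members and of 236 lone peaks (15.5%). For midbrain-only peaks in chains of 2 to 4 the median was 188 kb, with 24.8% within 50 kb, and in chains of 4 alone it was 96.8 kb, with 32.0%. Members of 1 run share their neighbours, so these shares carry no interval.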

How the data were processed

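p300 ChIP-seq gave 1 library from heart and 1 from midbrain. For both, the authors deposited a peak list, aligned reads and a coverage track on the build mm9, per the submitters' processing notes and the file headers. Each line of the aligned reads is 1 read, so the deposited values are raw counts, with the aligned bases and a lengthened interval. The deposited coverage is unscaled signal in steps of 25 bp, per the file headers, made from unique reads extended to 300 bp. The peak caller and its thresholds and any control are not given in the sources used here. Peaks were listed per library.

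Reads were placed by their 5 prime end, moved by 41 bp (heart) and 24 bp (midbrain), which is about 0.5 times the mean distance between the strands in peaks. They were counted within peaks and scaled to all aligned reads (rpm). Ratios carry exact conditional binomial 95% intervals, shares exact Clopper-Pearson intervals and ratios of ratios log-normal counting intervals. All of these cover counting error only, because each tissue has 1 library. Amplified reads that carry no molecular identifier may be copies of 1 molecule, so the intervals may be too narrow even for that. The interval and chain code was tested on simulated data. Python 3.11.15, numpy 2.4.6, pandas 2.3.3 and scipy 1.17.1 were used. The members, lists and settings were chosen with earlier results of these data known. Runs named by position are those with 8 or more listed peaks outside chromosome 18, which holds 1 more such run, and single peaks are the 5 with most midbrain reads, the 5 with the highest lower bound of the ratio and the 3 with most heart reads, all ranked outside chromosome 18. Others were named after their values had been seen. Chromosome 18 is counted in all totals and not described by position, and 1 of its members has a higher lower bound than any peak named. The RefSeq gene table is of GRCm38, so planned counts of neighbouring genes and motifs were not run and no sequence is printed.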

Additional observations from a re-analysis of the deposited data

How the results depend on the processing

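The number of runs and members depends on how peaks are chained. With a gap of 100 kb there were 58 runs with 372 members, and a gap of 25 kb left 26 and 155. Joining peaks less than 1 kb apart left 16 and 94, and keeping ranks up to 2000 left 21 and 119. The midbrain over heart ratio at the members was 2.69 when scaled to the near flanks and 3.24 in 1 kb around the middle. Between the peaks, the midbrain value was 1.77 beyond 1 kb from any peak, 1.65 beyond 2 kb and 1.69 without the raised run, and the heart value was 1.30 without it. The heart value at members over flanks was 2.31 with flanks at 50 to 150 kb. With these flanks the quotient of members to lone peaks turned from 0.872 to 1.10. After thinning the midbrain library to the depth of the heart library, 17.5% of members had an interval on the midbrain side. In all, 33 alternatives were run, 11 of them chosen after seeing the data. Of the 33, 18 stayed within the reported interval or within 1.5 times the count, among them both counts with the gap of 25 kb. A further 14 moved beyond this, and 1 turned to the other side of 1. Alternatives for neighbouring genes and motifs were not run, for want of an mm9 annotation and genome here. Heart depth limits single peaks, since 77 members hold 0 heart reads and 59 hold 1. No paired analysis was possible because each tissue has 1 library.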

Other observations

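The runs were unevenly spread over the chromosomes. Chromosome 9 held 4 runs with 23 members, which is 15.5% of its 148 midbrain peaks, and chromosome 18 held 4 runs with 27 members, 19.4% of its 139. On the other 14 chromosomes with a run, the share was between 3.27% and 10.6%. The run at chr9:41080889-41187852 lies some way before the one at chr9:41389340-41420479, and their members held 140 midbrain and 8 heart reads (ratio 3.89, interval 1.92 to 9.18) and 168 and 14 reads (ratio 2.67, interval 1.55 to 4.98). Space between the peaks of the former was 1.17 times as dense as outside in midbrain reads (interval 1.02 to 1.34), and 0.591 times in heart reads (interval 0.412 to 0.833), the only run in which the heart interval lay below 1. They were singled out with their values known, and the spread was not tested.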
